A study of Capra hircus with 12 samples.

Results

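ND1, ND2, ND3, ND4, ND4L, ND5, ND6, CYTB, COX1 and COX3 are protein genes of the mitochondrial genome, and their counts were followed through 12 libraries of goat jaw joint cells. These 10 genes were chosen by name, after their unequal fold changes between cultures with and without LOXL2 had been seen in these data, so they were selected on the LOXL2 comparisons of both cell layers. They are 10 of the 37 mitochondrial genes and 10 of the 28910 genes in each count table. Values of these 10 from the LOXL2 comparisons are therefore given as a description without a test, and they are tested only between layers. The layer comparisons reuse the libraries that entered the choice, so their p-values for the 10 are not independent of it. Other genes are tested in both kinds of comparison.

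The mitochondrial genome is a small circle that encodes core subunits of the respiratory chain, together with the transfer and ribosomal RNAs that mitochondria use to translate them. Each strand is copied into long precursors that are cleaved into shorter RNAs, so the steady level of a transcript depends on cleavage, polyadenylation and decay as well as on transcription. Chondrocytes live at low oxygen and draw much of their energy from glycolysis, and lowered respiratory chain activity has been described in osteoarthritic cartilage.

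The study cultured cells from the temporomandibular joint, the hinge of the jaw, of female goats aged 6 to 9 months at passages 3 to 5, and separated the superficial layer (SLC) from the middle cartilage layer (MLC). All cultures received interleukin-1β (IL-1β, an inflammatory cytokine, 10 ng for 1 h), and the IL-1β+LOXL2 cultures had also been given an adenovirus that carries lysyl oxidase-like 2, an enzyme of collagen cross-linking. An empty adenovirus is named in the study's methods for an apoptosis assay, but whether the IL-1β libraries sequenced here had received it is not given in the labels or the sequencing methods. Effects of LOXL2 and of the virus therefore cannot be told apart in these libraries. Each of the 4 groups, SLC with IL-1β, SLC with IL-1β+LOXL2, MLC with IL-1β and MLC with IL-1β+LOXL2, had 3 libraries of poly-T selected RNA.

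Total counts were 18751323, 22123593 and 19728437 for replicates 1 to 3 of SLC with IL-1β and 21080134, 28931652 and 22249738 for SLC with IL-1β+LOXL2. In MLC they were 14158607, 15330697 and 14976796 with IL-1β, and 19459045, 14188227 and 18886663 with IL-1β+LOXL2. No library was shallower than the 14158607 counts of MLC replicate 1 with IL-1β, and the SLC libraries were the deeper ones as a group. Whether replicates were separate cultures is not given in the labels, so the spread behind each p-value may be partly technical.

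Over all genes, replicate 1 of SLC with IL-1β+LOXL2 stood apart from replicates 2 and 3 of its group. Chi-square per degree of freedom was 159 and 58.2 for its pairs with them, and 29.2 between replicates 2 and 3. Over the chosen mitochondrial transcripts alone, replicates 1 and 3 were the closest pair. Their value was 115, against 170 for replicates 2 and 3 and 393 for replicates 1 and 2. Replicate 1 lay near the IL-1β libraries in ND2, ND4 and ND5, but in COX1 replicate 3 lay nearest to them. For LOXL2 in SLC, edgeR called 0 of 14103 genes at an adjusted p under 0.05 (0%), with 6108 genes at an unadjusted p under 0.05 and 4067 called by DESeq2. Without replicate 1, edgeR called 8849 of 14334 genes, 31.0% higher and 30.8% lower. Results that rest on that library are given with and without it.

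The layer labels were compared with marker genes. COL2A1, the main collagen of cartilage, had 0 counts in all SLC libraries with IL-1β, 0 to 1 in SLC with IL-1β+LOXL2, and means of 310 ± 102 and 302 ± 59.6 normalized counts (SD, n = 3) in MLC with IL-1β and with IL-1β+LOXL2. ACAN, the large cartilage proteoglycan, averaged 894 ± 48.0 in SLC and 7451 ± 826 in MLC with IL-1β, and SOX9, the chondrocyte transcription factor, 399.7 ± 24.8 and 1618 ± 149.7. COL2A1 and COL9A1 were at or near 0 in SLC, and ACAN, SOX9, HAPLN1 and COMP were higher in MLC as well. Of the 8 chondrocyte markers found in the tables, COL11A1 was not called with IL-1β (log2 fold change -0.04, edgeR adjusted p = 0.607), and MATN3, with 1 to 10 counts in a library, was not tested. Of the superficial or fibrous layer markers, THY1 (-0.59, edgeR adjusted p = 1.11e-06) and COL1A2 (-0.34, edgeR adjusted p = 0.00107) were lower in MLC with IL-1β and COL1A1 was not called (-0.19, edgeR adjusted p = 0.0567).

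COL1A1 was high in both layers, and its means ran from 596898 to 688121. The other 4 markers of that list were higher in MLC with IL-1β. They were POSTN (1.27, edgeR adjusted p = 9.54e-08), TNC (1.15, edgeR adjusted p = 5.08e-08), COL3A1 (0.70, edgeR adjusted p = 2.02e-06) and PRG4 (0.44, edgeR adjusted p = 0.0466). Of the osteoblast markers tested there, SPP1 was higher (2.86, edgeR adjusted p = 1.06e-12), RUNX2 (-0.55, edgeR adjusted p = 0.000236) and ALPL (-1.02, edgeR adjusted p = 0.045) were lower, and BGLAP was not called (0.74, edgeR adjusted p = 0.0884). Endothelial and adipocyte markers had group means of at most 72.7, with VWF higher in MLC with IL-1β (1.27, edgeR adjusted p = 0.000288), TEK (-0.82, edgeR adjusted p = 0.0432) and ADIPOQ (-1.63, edgeR adjusted p = 0.0174) lower, and PLIN1 not called (-0.65, edgeR adjusted p = 0.0663). Of the 6 macrophage markers, CD14 had group means from 1216 to 1994 normalized counts and was higher in MLC with IL-1β (log2 fold change 0.49, edgeR adjusted p = 0.00399) and not called with IL-1β+LOXL2 (0.42, edgeR adjusted p = 0.209). CD68 averaged 101 to 179 and CSF1R at most 30.3, AIF1 had at most 9 counts in a library, and PTPRC and C1QA had 0 to 2. Any part of such cells in the results was not tested.

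Levels below are counts scaled by DESeq2 size factors over all 12 libraries and are called normalized counts, which compare a gene between libraries. In these bulk libraries, fewer cells with a transcript and less RNA per cell cannot be told apart. Reads of genes that overlap or share sequence are a further limit, since the strand setting and the treatment of overlapping and multi-mapping reads, nuclear copies of mitochondrial DNA included, are not given in the sources used here.

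The 10 transcripts together took 0.181%, 0.179% and 0.187% of all counts in replicates 1 to 3 of SLC with IL-1β, and 0.179%, 0.133% and 0.152% in SLC with IL-1β+LOXL2. In MLC the shares were 0.223%, 0.230% and 0.214% with IL-1β, and 0.206%, 0.213% and 0.196% with IL-1β+LOXL2. The 95% Clopper-Pearson interval of each share was at most 0.00246 percentage points to either side, and such intervals cover counting error only. Every MLC library lay above every SLC library, and within each layer all 3 libraries with IL-1β+LOXL2 lay below those with IL-1β. Replicate 1 of SLC and replicate 2 of MLC with IL-1β+LOXL2 did so by less than the width of their intervals.

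Group means of this share were 0.182% ± 0.00391 (SD, n = 3) in SLC with IL-1β, 0.155% ± 0.0231 in SLC with IL-1β+LOXL2, 0.222% ± 0.00777 in MLC with IL-1β and 0.205% ± 0.00873 in MLC with IL-1β+LOXL2. As log2 ratios of means, the share moved by -0.24 with LOXL2 in SLC and by -0.12 with LOXL2 in MLC. Without replicate 1 of SLC with IL-1β+LOXL2 the ratio for SLC was -0.36, and without replicate 2 it was -0.14. Between layers the log2 ratio, MLC over SLC, was 0.28 with IL-1β and 0.41 with IL-1β+LOXL2, and 0.52 without that replicate. The sum was lower with LOXL2 in both layers, while single transcripts described below lay on both sides of 0. No p is given for a sum over genes that were picked with results known.

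**Figure D1:**
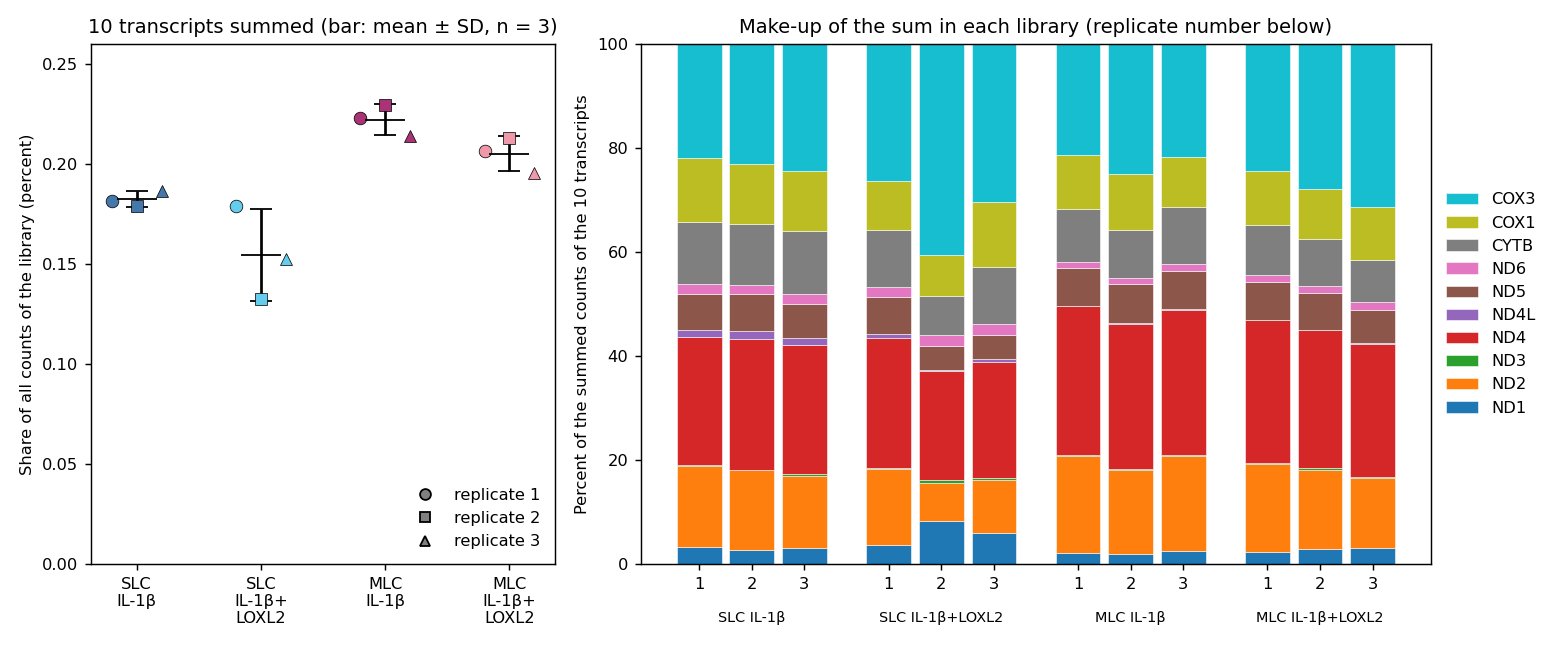
The left panel plots the share of all counts taken by the 10 transcripts in each library (percent, linear axis from 0), with the mean and SD of each group of 3 libraries, and the right panel splits that sum into its transcripts, in percent of the sum. The shares run from 0.133% to 0.230%, and COX3 takes its largest part, 40.7%, in replicate 2 of SLC with IL-1β+LOXL2.

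The make-up of the sum differed between libraries. COX3 made up 26.4%, 40.7% and 30.5% of it in replicates 1 to 3 of SLC with IL-1β+LOXL2, against a mean of 23.2% in SLC with IL-1β. ND2 made up 14.5%, 7.32% and 10.3%, against a mean of 15.0%, and ND1 3.64%, 8.24% and 5.85%, against a mean of 2.99%. In MLC the means with IL-1β and with IL-1β+LOXL2 were 22.7% and 28.0% for COX3, 17.7% and 15.2% for ND2, and 2.18% and 2.73% for ND1. COX3 and ND1 made up more of the mean sum with LOXL2 and ND2 less of it in both layers, by most in replicate 2 of SLC with IL-1β+LOXL2.

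Spread between replicates was largest in that same group. Over the 10 transcripts, chi-square per degree of freedom between replicate pairs ran from 115 to 393 in SLC with IL-1β+LOXL2, from 5.16 to 13.2 in SLC with IL-1β, from 4.76 to 24.7 in MLC with IL-1β and from 16.5 to 71.4 in MLC with IL-1β+LOXL2. Over all genes the same group was also the largest, at 29.2 to 159, against 6.25 to 7.39, 2.23 to 9.38 and 5.81 to 33.9 in the others in the same order. Counting error alone would give values near 1, but it leaves out any spread between separate libraries. The values therefore only rank groups and replicate pairs, and nothing is read from their lying above 1. They also grow with library depth, and this group had the highest median total, 22249738 counts. The ranking may therefore partly follow depth.

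Per kilobase of gene, the order of the 5 most abundant transcripts was the same in all 4 groups, COX3, ND4, ND2, CYTB and COX1. In SLC with IL-1β their means were 9905, 6042, 4796, 3496 and 2541 normalized counts per kilobase. The lower places changed hands. ND4L stood sixth in SLC with IL-1β at 1515 ± 168 per kilobase, above ND5 at 1273 ± 23.2, ND6 at 1164 ± 64.6, ND1 at 1046 ± 80.2 and ND3 at 196 ± 95.3. With LOXL2 in SLC, ND4L was at 519 ± 333 and only ND3 was lower. In both MLC groups ND4L was the lowest of the 10, at 151 ± 69.2 with IL-1β and 99.1 ± 33.0 with IL-1β+LOXL2, below ND3 at 239 and 351.

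Across the LOXL2 comparison in SLC, 2 of the 10 transcripts had all 3 IL-1β+LOXL2 libraries above all 3 IL-1β libraries, 6 had them all below, and 2 overlapped. Among all 14103 genes tested there, 23.8% were placed above and 25.2% below. In MLC 1 of the 10 lay above, 4 lay below and 5 overlapped, where 21.5% and 19.9% of 13664 genes did. Nothing is read from these counts, since the same contrasts chose the genes. Median log2 fold changes of the 10 were -0.38 in SLC and -0.16 in MLC, against 0.01 and 0.01 over all genes tested.

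Between layers, edgeR called 4 of the 10 transcripts higher and 2 lower in MLC than in SLC with IL-1β, where 24.2% of 13966 genes were called higher and 22.7% lower. With IL-1β+LOXL2 it called 1 higher and 1 lower, where 9.26% and 6.82% of 14086 genes were called. Without replicate 1 of SLC with IL-1β+LOXL2, 3 were higher and 2 lower, where 16.8% and 16.1% of 14233 genes were. With the replicate number as a block, 3 were higher and 2 lower, where 14.4% and 13.2% of genes were. All 10 passed the filter on low counts in every comparison, and the 2 layer comparisons share no library with each other, though each shares its libraries with the LOXL2 comparisons. The median log2 fold change of the 10 between layers was 0.21 with IL-1β and 0.25 with IL-1β+LOXL2, against -0.01 and -0.03 over all genes tested.

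**Figure D2:**
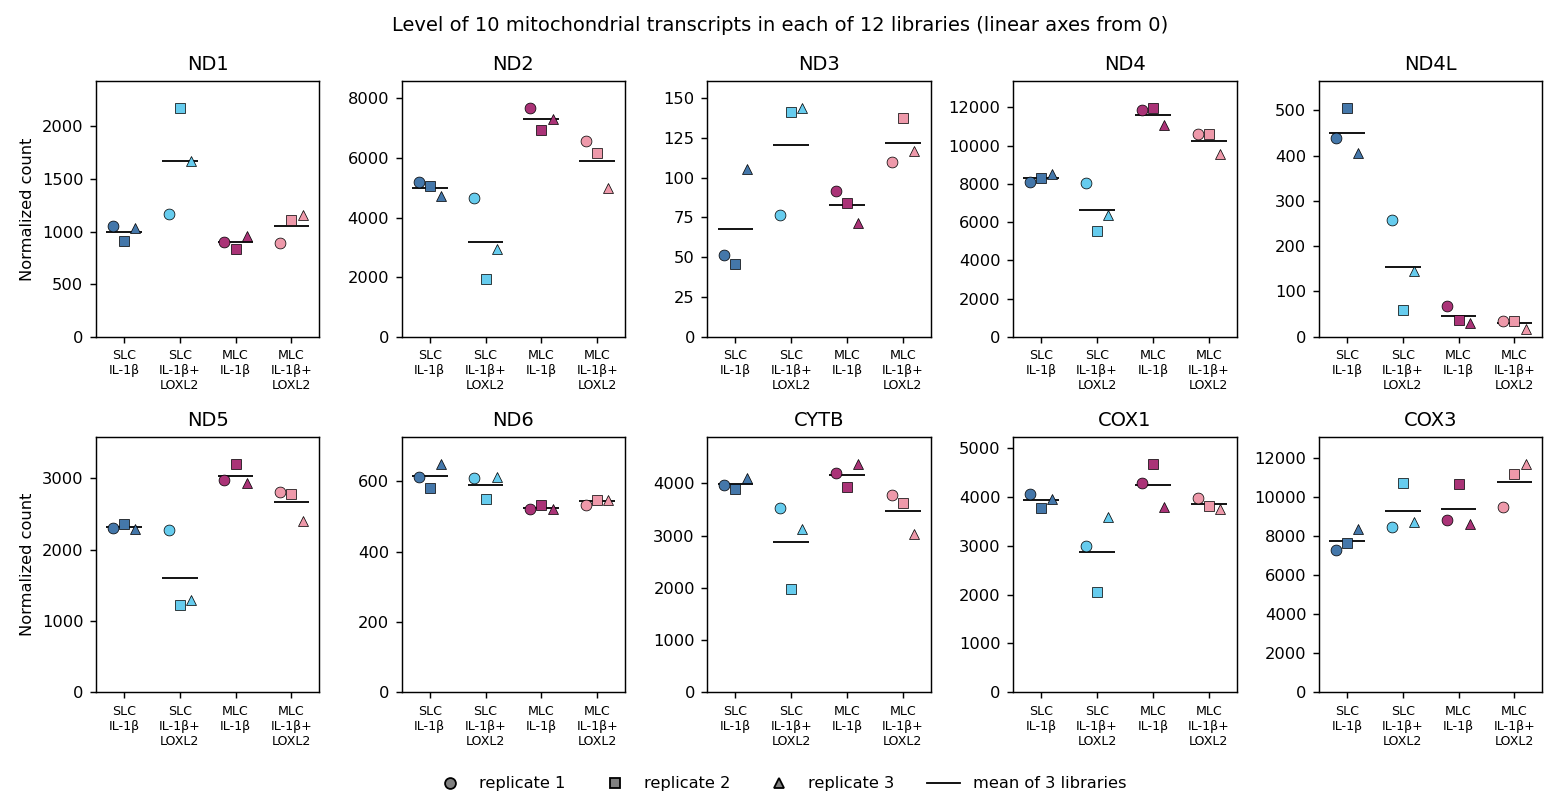
Each panel plots 1 transcript as normalized counts (linear axis from 0) in the 12 libraries, with the marker shape giving the replicate number and the line the mean of 3 libraries. ND4L runs from 504 in SLC with IL-1β to 18.2 in MLC with IL-1β+LOXL2, while ND6 stays between 521 and 649.8.

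Complex I, the entry point of electrons from NADH, takes 7 of its subunits from the mitochondrial genome, and all 7 are in this group. ND4L, a small membrane subunit of the proton-pumping arm (gene 1485864, MT:9878-10174, goat build ARS1.2), spans 297 bases and shares its last 7 bases with the start of ND4. Its normalized counts were 439.9, 504 and 406 in replicates 1 to 3 of SLC with IL-1β, and 257, 59.7 and 146 with IL-1β+LOXL2. In MLC they were 68.2, 36.5 and 29.7 with IL-1β, and 35.7, 34.4 and 18.2 with IL-1β+LOXL2. SLC with IL-1β held the highest libraries, and every IL-1β+LOXL2 library of SLC lay below them, while the MLC groups overlapped. Raw counts were between 18 and 52 in MLC, so single values there carry wide counting error.

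ND4L had a log2 fold change of -1.55 ± 0.45 (SE) with LOXL2 in SLC and -0.61 ± 0.36 in MLC. Without replicate 1 of SLC with IL-1β+LOXL2 the value in SLC was -2.16, and the value in MLC was -0.18 without replicate 1 of MLC with IL-1β and -0.35 without replicate 3 of MLC with IL-1β+LOXL2. Between layers ND4L was lower in MLC with IL-1β, by a log2 fold change of -3.32 ± 0.19 or 9.98 times (edgeR adjusted p = 5.37e-09), and this held in all 14 alternative analyses. With IL-1β+LOXL2 it was lower by -2.39 ± 0.56 or 5.23 times (edgeR adjusted p = 0.0259), and by -1.79 or 3.45 times without SLC replicate 1 (adjusted p = 0.011). That call was lost without SLC replicate 3 (adjusted p = 0.0704) and without MLC replicate 1, 2 or 3 (adjusted p = 0.0735, 0.0866 and 0.103), with adjusted p from 4.42e-05 to 0.103 over the alternatives. Among the 10, ND4L was thus the gene whose counts differed most between the layers.

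ND4, the next gene (1485865, MT:10168-11545) and a core subunit of the same pumping arm, was among the most abundant. Its normalized counts were 8124, 8326 and 8527 in SLC with IL-1β and 8028, 5525 and 6379 with IL-1β+LOXL2. In MLC they were 11847, 11951 and 11059 with IL-1β, and 10607, 10600.3 and 9545 with IL-1β+LOXL2. All MLC libraries exceeded all SLC libraries, and within each layer the IL-1β+LOXL2 libraries lay below the IL-1β ones, replicate 1 of SLC only just.

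The log2 fold change of ND4 with LOXL2 was -0.32 ± 0.15 (SE) in SLC, -0.49 without replicate 1 of SLC with IL-1β+LOXL2 and -0.20 without replicate 2, and -0.18 ± 0.08 in MLC. Between layers ND4 was higher in MLC by 0.50 ± 0.06 with IL-1β (edgeR adjusted p = 8.27e-06), and all 14 alternatives kept that call. With IL-1β+LOXL2 the difference was 0.63 ± 0.16 (edgeR adjusted p = 0.0373), and 0.80 without SLC replicate 1 (adjusted p = 0.00142). It was no longer called without SLC replicate 2 or 3 (adjusted p = 0.0559 and 0.146), without MLC replicate 1, 2 or 3 (adjusted p = 0.111, 0.146 and 0.0849) or after removal of a trend on gene span (adjusted p = 0.0799), and adjusted p ranged from 0.00142 to 0.146 over the alternatives. ND4 and ND4L are neighbours that overlap in sequence, yet their counts differed between the layers in opposite directions. Whether this lies in the RNA or in how reads were assigned to each gene was not tested.

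Their ratio shows this library by library. ND4L over ND4, as raw counts, was 0.0541, 0.0605 and 0.0476 in SLC with IL-1β, and 0.0320, 0.0108 and 0.0229 with IL-1β+LOXL2. In MLC it was 0.00576, 0.00306 and 0.00268 with IL-1β, and 0.00337, 0.00325 and 0.00190 with IL-1β+LOXL2. No MLC library reached the lowest SLC library, and in SLC every library with LOXL2 lay below every library without it. Reads that cross the shared bases may be counted for either gene or for none.

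ND2, an antiporter-like membrane subunit of complex I (gene 1485857, MT:3907-4948), had 5201, 5054 and 4739 normalized counts in SLC with IL-1β and 4663, 1928 and 2934 with IL-1β+LOXL2. In MLC it had 7659, 6934 and 7290.0 with IL-1β, and 6555, 6148 and 4974 with IL-1β+LOXL2. ND2 was highest in MLC with IL-1β and lowest in replicates 2 and 3 of SLC with IL-1β+LOXL2, and the groups with and without LOXL2 did not overlap in either layer.

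With LOXL2 the log2 fold change of ND2 was -0.65 ± 0.29 (SE) in SLC and -0.31 ± 0.11 in MLC. In SLC it became -1.04 without replicate 1 of the IL-1β+LOXL2 group and -0.39 without replicate 2, and in MLC it became -0.20 without replicate 3 of that group. ND2 was higher in MLC than in SLC with IL-1β by 0.57 ± 0.06 (edgeR adjusted p = 3.73e-06), which only a fit of all 12 libraries together did not call (adjusted p = 0.0965, the highest of the alternatives, with 1.84e-16 the lowest). With IL-1β+LOXL2 the difference was 0.90 ± 0.31 and was not called (edgeR adjusted p = 0.094). Without replicate 1 of SLC with IL-1β+LOXL2 it was 1.29 (adjusted p = 0.00118), and with the replicate block 0.98 (adjusted p = 0.00893), in a range from 0.00118 to 0.253 over the alternatives.

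ND5, another antiporter-like subunit (gene 1485866, MT:11748-13568), followed ND2 across the libraries. It had 2308, 2365 and 2283 normalized counts in SLC with IL-1β, and 2278, 1219.7 and 1296 with IL-1β+LOXL2. In MLC it had 2977, 3200.4 and 2939 with IL-1β, and 2812, 2783 and 2404 with IL-1β+LOXL2. Replicate 1 of SLC with IL-1β+LOXL2 was level with the IL-1β libraries of its layer, where replicates 2 and 3 were far below them.

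ND5 had a log2 fold change with LOXL2 of -0.53 ± 0.24 (SE) in SLC and -0.19 ± 0.09 in MLC. The value in SLC was -0.89 without replicate 1 of SLC with IL-1β+LOXL2, and the value in MLC was -0.12 without replicate 3 of MLC with IL-1β+LOXL2. In MLC with IL-1β it was higher than in SLC by 0.41 ± 0.06 (edgeR adjusted p = 5.21e-05), a call that the fit of all 12 libraries did not make (adjusted p = 0.134, with 1.5e-08 to 0.134 over the alternatives). With IL-1β+LOXL2 the layers differed by 0.74 ± 0.25, not called (edgeR adjusted p = 0.0894). The same difference was 1.10 (adjusted p = 0.000232) without replicate 1 of SLC with IL-1β+LOXL2 and 0.80 (adjusted p = 0.00817) with the replicate block, and adjusted p reached 0.268 at most over the alternatives.

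ND1, a subunit at the quinone-binding end of complex I (gene 1485856, MT:2742-3697), went the other way. It had 1053, 912 and 1035 normalized counts in SLC with IL-1β, and 1168, 2172 and 1674 with IL-1β+LOXL2. In MLC it had 899, 831 and 961 with IL-1β, and 891, 1111 and 1159 with IL-1β+LOXL2. Replicates 2 and 3 of SLC with IL-1β+LOXL2 stood above all other libraries, and the MLC groups overlapped.

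The log2 fold change of ND1 with LOXL2 was 0.74 ± 0.21 (SE) in SLC, 0.94 without replicate 1 of SLC with IL-1β+LOXL2, and 0.23 ± 0.12 in MLC. Without replicate 3 of MLC with IL-1β+LOXL2 the latter was 0.15. Removal of the trend on gene span gave 0.33 in SLC and turned the sign in MLC, at -0.02. Between layers ND1 was not called with IL-1β, at -0.14 ± 0.08 (edgeR adjusted p = 0.171) and -0.08 without MLC replicate 2, nor with IL-1β+LOXL2, at -0.65 ± 0.22 (edgeR adjusted p = 0.0962) and -0.43 without SLC replicate 2. In the latter it was called lower in MLC without replicate 1 of SLC with IL-1β+LOXL2 (-0.85, adjusted p = 0.00344) and with the replicate block (-0.62, adjusted p = 0.00706), with 0.00344 to 0.262 over the alternatives.

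The ratio of ND1 to ND2 counts, genes that lie next to each other apart from transfer RNAs, was 0.202, 0.180 and 0.218 in SLC with IL-1β and 0.251, 1.13 and 0.571 with IL-1β+LOXL2. In MLC it was 0.117, 0.120 and 0.132 with IL-1β, and 0.136, 0.181 and 0.233 with IL-1β+LOXL2. In both layers all libraries with LOXL2 had a higher ratio than all libraries without it.

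ND3, a small subunit at the junction of the complex I arms (gene 1485863, MT:9462-9807), was the least abundant in SLC with IL-1β. Its normalized counts were 51.6, 46.0 and 106 there, and 76.6, 141 and 144 with IL-1β+LOXL2. In MLC they were 91.8, 84.0 and 71.7 with IL-1β, and 110.0, 138 and 117 with IL-1β+LOXL2. The SLC groups overlapped through replicate 3 with IL-1β, and the MLC groups did not.

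ND3 had a log2 fold change with LOXL2 of 0.84 ± 0.38 (SE) in SLC and 0.55 ± 0.18 in MLC. In SLC the value was 1.07 without replicate 1 of SLC with IL-1β+LOXL2 and 1.31 without replicate 3 of SLC with IL-1β. Between layers it was not called with IL-1β, at 0.31 ± 0.27 (edgeR adjusted p = 0.375), nor with IL-1β+LOXL2, at 0.02 ± 0.26 (edgeR adjusted p = 0.966). Leaving out replicate 3 of SLC with IL-1β gave 0.78 with IL-1β (adjusted p = 0.0104, in a range from 0.0104 to 0.838), and leaving out replicate 1 or 2 gave 0.15 or 0.08. With IL-1β+LOXL2 the sign turned without replicate 1 of SLC (-0.22, adjusted p = 0.389) and without replicate 2 of MLC (-0.08, adjusted p = 0.921), and ran from 0.05 to 0.16 without SLC replicate 2 or 3 or MLC replicate 1 or 3, with 0.389 to 0.998 over the alternatives.

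ND6 is the only protein gene encoded on the other strand (gene 1485867, MT:13552-14079), and it overlaps ND5 by 17 bases, so reads from the ND5 strand may enter its counts. It had 612, 582 and 649.8 normalized counts in SLC with IL-1β and 610.2, 549 and 613 with IL-1β+LOXL2. In MLC it had 522, 534 and 521 with IL-1β, and 533, 548 and 549 with IL-1β+LOXL2. The groups with and without LOXL2 overlapped in both layers. Replicate 2 of SLC with IL-1β+LOXL2, low in ND2 and ND5, was below the IL-1β libraries of its layer here too. Replicate 3, also low in ND2 and ND5, lay within their range.

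The log2 fold change of ND6 with LOXL2 was -0.05 ± 0.11 (SE) in SLC and 0.04 ± 0.10 in MLC. In SLC it was -0.10 or -0.01 without replicate 2 or 3 with IL-1β and -0.08 or 0.00 without replicate 1 or 2 with IL-1β+LOXL2. ND6 was lower in MLC than in SLC with IL-1β by -0.20 ± 0.07 (edgeR adjusted p = 0.035). That call was lost in 7 of 14 alternatives, among them DESeq2 (adjusted p = 0.0987) and leaving out replicate 1 or 3 of SLC (adjusted p = 0.0766 and 0.116) or of MLC (adjusted p = 0.0909 and 0.0996), with adjusted p from 0.0281 to 0.116. With IL-1β+LOXL2 the layers were not called different, at -0.11 ± 0.12 (edgeR adjusted p = 0.579) and -0.08 without SLC replicate 1 (adjusted p = 0.65), and removal of the trend on gene span gave 0.05 (adjusted p = 0.867, in a range from 0.306 to 0.867). With the trend on gene span removed, the LOXL2 values of ND6 were -0.41 in SLC and -0.20 in MLC, the latter with its sign turned. Over ND5, its raw count was 0.265, 0.246 and 0.285 in SLC with IL-1β and 0.268, 0.450 and 0.473 with IL-1β+LOXL2.

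CYTB encodes cytochrome b, the only mitochondrially encoded subunit of complex III, which passes electrons from ubiquinol to cytochrome c (gene 1485868, MT:14153-15292). Its normalized counts were 3962, 3894 and 4102 in SLC with IL-1β, and 3524, 1987 and 3128 with IL-1β+LOXL2. In MLC they were 4194, 3937 and 4372 with IL-1β, and 3769, 3629 and 3032 with IL-1β+LOXL2. In each layer all IL-1β+LOXL2 libraries lay below all IL-1β libraries, and the layers overlapped.

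For CYTB the log2 fold change with LOXL2 was -0.46 ± 0.20 (SE) in SLC, -0.64 without replicate 1 of SLC with IL-1β+LOXL2 and -0.25 without replicate 2, and -0.26 ± 0.10 in MLC, -0.18 without replicate 3 of MLC with IL-1β+LOXL2. Between layers it was 0.08 ± 0.06 with IL-1β, with a 95% interval from -0.03 to 0.20 (edgeR adjusted p = 0.276), and 0.05 without MLC replicate 3. With IL-1β+LOXL2 it was 0.28 ± 0.22, with an interval from -0.15 to 0.71 (edgeR adjusted p = 0.455). Neither was called in any alternative, although the value with IL-1β+LOXL2 was 0.46 without replicate 1 of SLC and 0.07 without replicate 2.

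Complex IV, cytochrome c oxidase, reduces oxygen to water, and COX1 encodes its catalytic subunit (gene 1485858, MT:5329-6873). COX1 had 4057, 3772 and 3948 normalized counts in SLC with IL-1β, and 2992, 2059.6 and 3584 with IL-1β+LOXL2. In MLC it had 4273, 4668 and 3798 with IL-1β, and 3974, 3810.1 and 3754 with IL-1β+LOXL2. The SLC groups did not overlap, the MLC groups did, and replicate 2 of SLC with IL-1β+LOXL2 was the lowest of all.

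With LOXL2 the log2 fold change of COX1 was -0.44 ± 0.19 (SE) in SLC and -0.15 ± 0.09 in MLC. In SLC it was -0.48 without replicate 1 of SLC with IL-1β+LOXL2 and -0.25 without replicate 2, and in MLC it was -0.07 without replicate 2 and -0.22 without replicate 3 of MLC with IL-1β. Between layers COX1 was not called with IL-1β, at 0.13 ± 0.07 (edgeR adjusted p = 0.15), but was without replicate 3 of MLC with IL-1β (0.21, adjusted p = 0.0459, in a range from 0.0459 to 0.607), and was 0.06 without replicate 2. With IL-1β+LOXL2 it was 0.43 ± 0.20, not called (edgeR adjusted p = 0.204), 0.46 without replicate 1 of SLC (adjusted p = 0.107) and 0.23 without replicate 2.

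COX3, a core subunit that lies beside the catalytic subunit (gene 1485862, MT:8609-9392), was the most abundant per kilobase. It had 7278, 7667 and 8350.3 normalized counts in SLC with IL-1β, and 8471, 10718 and 8716 with IL-1β+LOXL2. In MLC it had 8856, 10676 and 8628 with IL-1β, and 9489.8, 11193 and 11709 with IL-1β+LOXL2. COX3 was above the IL-1β libraries in all 3 LOXL2 libraries of SLC, and the MLC groups overlapped.

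The log2 fold change of COX3 with LOXL2 was 0.26 ± 0.13 (SE) in SLC, 0.32 without replicate 1 of SLC with IL-1β+LOXL2 and 0.15 without replicate 2, and 0.20 ± 0.11 in MLC. After removal of the trend on gene span the signs turned, to -0.13 in SLC and -0.05 in MLC. Without replicate 2 of MLC with IL-1β the value in MLC was 0.30. Between layers COX3 was higher in MLC with IL-1β by 0.29 ± 0.08 (edgeR adjusted p = 0.00918), 0.19 without replicate 2 of MLC, and was not called in the fit of all 12 libraries (adjusted p = 0.115, with 0.000382 to 0.115 over the alternatives). With IL-1β+LOXL2 it was 0.23 ± 0.14, 0.17 without SLC replicate 1 (adjusted p = 0.379), and not called (edgeR adjusted p = 0.336), other than after removal of the trend on gene span (adjusted p = 0.0451, in a range from 0.0451 to 0.656).

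COX3 over ND2, as raw counts, gathered the opposite movements into 1 value. It was 1.40, 1.52 and 1.76 in SLC with IL-1β, and 1.82, 5.56 and 2.97 with IL-1β+LOXL2. In MLC it was 1.16, 1.54 and 1.18 with IL-1β, and 1.45, 1.82 and 2.35 with IL-1β+LOXL2. The ratio separated the SLC groups and overlapped slightly in MLC, and COX3 over COX1, subunits of the same complex, ran from 1.79 to 2.12 and from 2.43 to 5.20 in the SLC groups.

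**Figure D3:**
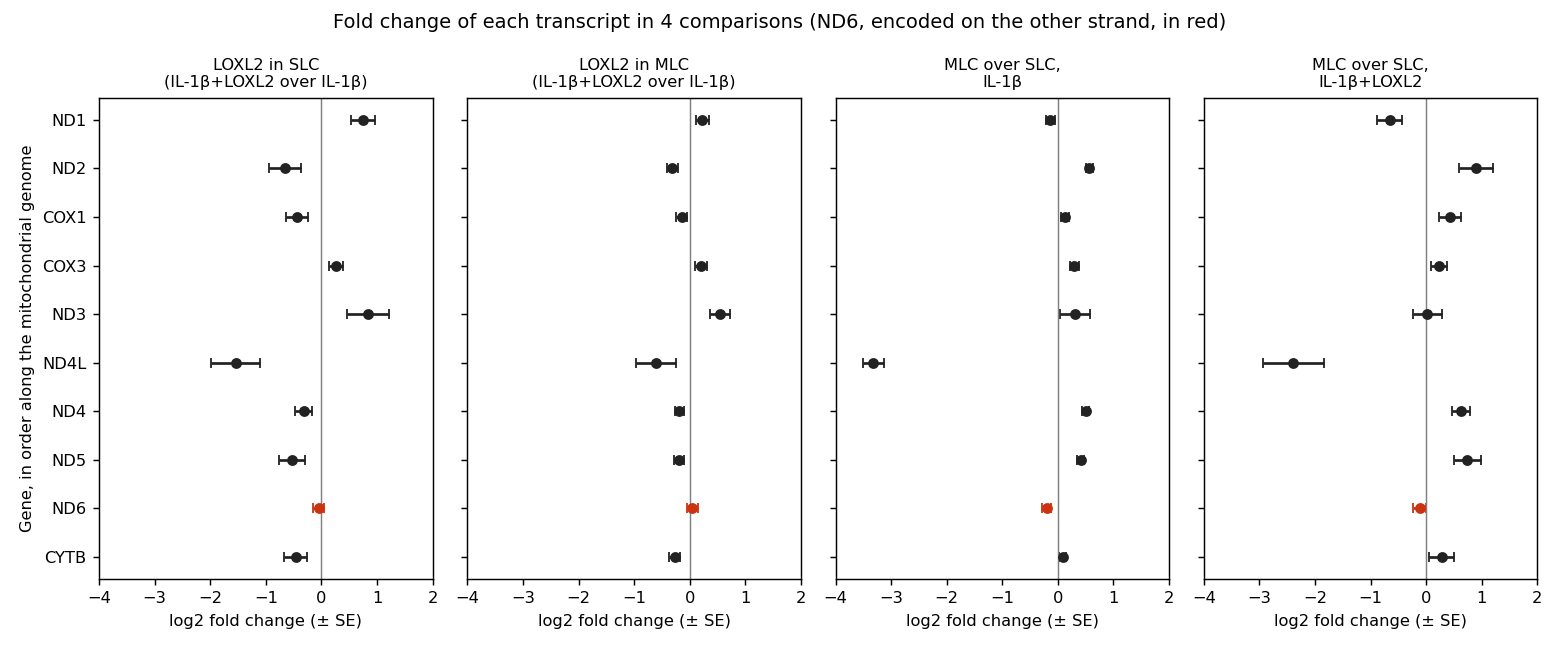
The panels plot the log2 fold change of each transcript in the 4 comparisons, with an SE derived from edgeR's fold change and test statistic. The genes follow their order along the mitochondrial genome, with ND6 in red. ND4L is the farthest left in every panel, at -1.55, -0.61, -3.32 and -2.39, while its neighbours ND3 and ND4 lie elsewhere.

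Along the genome, starting at ND1, the log2 fold changes in SLC read 0.74 for ND1, -0.65 for ND2, -0.44 for COX1, 0.26 for COX3, 0.84 for ND3, -1.55 for ND4L, -0.32 for ND4, -0.53 for ND5, -0.05 for ND6 and -0.46 for CYTB. The 5 genes from ND4L to CYTB all had values below 0, and ND3 and ND4L, next to each other apart from a transfer RNA, held the highest and the lowest value. Nothing is read from this order, since these values chose the genes. The LOXL2 comparisons of the layers were not tested against each other, and no interaction was fitted here.

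Genomic span moved with the LOXL2 values of nuclear genes too. Over all genes with a span, Spearman's rho between log2 fold change and span was -0.49 in SLC and -0.49 in MLC, a value across genes, and genes do not stand for separate samples. The 407 nuclear protein genes of at most 2000 bases tested in SLC had a median log2 fold change of 0.62, and the 384 tested in MLC 0.39. Between layers the medians were 0.06 with IL-1β and -0.19 with IL-1β+LOXL2. All 10 mitochondrial genes are as short, and the part of span in their values was not tested beyond a fit that removed each library's trend on span. That fit gave log2 fold changes in SLC of -0.95 for ND2, 0.48 for ND3, -0.63 for ND4, -1.81 for ND4L, -0.80 for ND5, -0.78 for CYTB and -0.76 for COX1. In MLC it gave -0.54 for ND2, 0.31 for ND3, -0.40 for ND4, -0.84 for ND4L, -0.40 for ND5, -0.49 for CYTB and -0.36 for COX1. Those of ND1, ND6 and COX3 are given with each gene.

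The mitochondrial protein genes outside the group were COX2, ATP6 and ATP8. COX2, the copper-binding subunit that receives electrons from cytochrome c (MT:7016-7699), had 311, 261 and 409 normalized counts in SLC with IL-1β and 728, 575 and 560.4 in MLC with IL-1β. It was higher in MLC by 0.95 (edgeR adjusted p = 7.28e-05), and by 0.83 with IL-1β+LOXL2 (edgeR adjusted p = 0.00363). ATP6, the proton channel subunit of ATP synthase (MT:7929-8609), averaged 709 in SLC and 723 in MLC with IL-1β and was not called (0.05, edgeR adjusted p = 0.838), but was without SLC replicate 3 (0.36, adjusted p = 0.0032). ATP8, whose gene overlaps ATP6, had at most 2 counts in a library. COX2 thus differed between the layers by more than COX1 or COX3 did.

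Of the RNA genes, KEF96_r01 was lower in MLC than in SLC with IL-1β by -0.51 (edgeR adjusted p = 0.000263) and with IL-1β+LOXL2 by -0.85 (edgeR adjusted p = 0.0112), from means of 699 and 483 and of 968 and 530.1 normalized counts. The latter call was lost without MLC replicate 1 or 2 (adjusted p = 0.0513 and 0.0657). KEF96_r02 was not called with IL-1β, at -0.18 (edgeR adjusted p = 0.467), but was without MLC replicate 2 (-0.55, adjusted p = 0.000782). KEF96_t22, a transfer RNA gene of 66 bases (MT:15365-15430), had means of 5492 and 4162 with IL-1β and was lower in MLC by -0.38 (edgeR adjusted p = 7.7e-05). It was not called with IL-1β+LOXL2 (-0.25, edgeR adjusted p = 0.538), and its sign turned without SLC replicate 1 (0.04, adjusted p = 0.86). KEF96_t05 was called higher in MLC with IL-1β+LOXL2 (2.61, edgeR adjusted p = 0.0355), from 2, 2 and 8 raw counts in SLC to 10, 21 and 23 in MLC, a call lost without SLC replicate 2 (adjusted p = 0.0768) or MLC replicate 2 or 3 (adjusted p = 0.134 and 0.124). The 21 transfer RNA genes other than KEF96_t22 had at most 40 counts each in any library. The large counts at KEF96_t22 stood among transfer RNA genes that were otherwise nearly empty in poly-T selected RNA.

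Genes with the most similar pattern were ranked by Pearson's r of log2 normalized counts over 12 libraries that share 4 groups, among 10751 genes, as a description without a test. Closest to the sum of the 10 were LOC108634620 (r = 0.985), MAP2 (0.982), FASN (0.981), LDLRAD3 (0.980) and LOC108635517 (0.979). For ND6 alone they were LOC106502094 (0.919), GSPT2 (0.914), LHFP (0.911), RAB18 (0.903) and GNPDA2 (0.895). The nearest genes differed between the sum and ND6. Among the 10 themselves, r was 0.97 for ND2 with ND5 and 0.96 for ND2 with ND4, and -0.94 for ND1 with ND2.

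Most respiratory chain subunits are encoded in the nucleus, and these were counted with LOXL2 in MLC, where edgeR called 9.81% of 13664 genes higher and 11.8% lower. Of 37 nuclear complex I genes 26 were called higher and 0 lower (0 at an unadjusted p under 0.05 and 0 by DESeq2), with a median log2 fold change of 0.42 against 0.01 over all genes. NDUFA13 had 0.66 (edgeR adjusted p = 0.0199) and NDUFA6 0.56 (edgeR adjusted p = 0.0195), both accessory subunits. Of 16 complex V genes 11 were called higher, with a median of 0.43, and of 4 complex II genes 1, SDHB, at 0.39 (edgeR adjusted p = 0.0313). NDUFA4, a subunit of complex IV, had 0.46 (edgeR adjusted p = 0.0257). Short nuclear genes had a median of 0.39 in this comparison, close to those of complexes I and V. Any part of gene span in the values of the lists, here and in the comparisons below, was not tested. Of the cell type and layer markers tested in it, THY1 (0.40, edgeR adjusted p = 0.0214) and COMP (0.37, edgeR adjusted p = 0.0283) were higher. TNC was lower (-0.45, edgeR adjusted p = 0.0286), and the other markers were not called. Of the mitochondrial complex I transcripts, ND1, ND3 and ND6 had values above 0 there and ND2, ND4, ND4L and ND5 below. The counts hung on single libraries, since complex I had 0 calls without MLC replicate 1 or 3 with IL-1β or replicate 2 with IL-1β+LOXL2, 4 without replicate 2 with IL-1β and 2 without replicate 3 with IL-1β+LOXL2. Complex V had 0, 0, 0, 2 and 0 calls in the same analyses. Without replicate 1 with IL-1β+LOXL2, 35 complex I genes were called higher and 1 lower, and 15 complex V genes higher. Over all genes that fit called 6653, in either direction, against 2958 with all libraries.

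Lists of genes that make and read mitochondrial RNA were counted in the same comparison and were not tested against each other. Of 77 genes of the mitochondrial ribosome 35 were called higher, with a median of 0.37, MRPL41 at 0.68 (edgeR adjusted p = 0.0199) and MRPL12 at 0.62 (edgeR adjusted p = 0.0199) among them. That count was 0 without MLC replicate 1 or 3 with IL-1β or replicate 2 with IL-1β+LOXL2, 2 without replicate 2 with IL-1β or replicate 3 with IL-1β+LOXL2, and 60 without replicate 1 with IL-1β+LOXL2. The last of these fits called 6653 genes over all genes, in either direction. Of 17 genes of mitochondrial DNA transcription and replication edgeR called 0, with 1 at an unadjusted p under 0.05 and 0 called by DESeq2, and the median was 0.09. Of 19 genes of mitochondrial RNA processing, polyadenylation and decay 2 were called higher, SLIRP, which binds mitochondrial messenger RNA, at 0.53 (edgeR adjusted p = 0.0286) and HSD17B10, a subunit of mitochondrial RNase P, at 0.39 (edgeR adjusted p = 0.0411), with a median of 0.02. Both calls of that list were lost without any single MLC library other than replicate 1 with IL-1β+LOXL2, without which 5 were higher and 2 lower. Without that replicate, 6653 genes were called over all genes, in either direction. Among 9 regulators of mitochondrial biogenesis 3 were called lower, CREB1 at -0.44 (edgeR adjusted p = 0.0207), GABPA at -0.39 (edgeR adjusted p = 0.0285) and PPARGC1B at -0.89 (edgeR adjusted p = 0.0426), the last named after its value was seen. In this comparison edgeR called 0 of all genes without MLC replicate 1 or 3 with IL-1β or replicate 2 with IL-1β+LOXL2, so each single call above was lost there.

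With LOXL2 in SLC no nuclear list had an edgeR call. Of complex I 34 genes had an unadjusted p under 0.05 and DESeq2 called 34, for the mitochondrial ribosome these counts were 60 and 52, and for complex V 14 and 13, all higher. Over all genes, in either direction, 6108 of 14103 had an unadjusted p under 0.05 and DESeq2 called 4067 of 13880. The medians were 0.74 for complex I, 0.71 for complex V and 0.64 for the ribosome, while transcription and replication had 0.03 and RNA processing 0.07. Without replicate 1 of SLC with IL-1β+LOXL2, edgeR called 36 complex I genes higher and 1 lower, 15 complex V genes and 72 ribosome genes higher, 5 transcription and replication genes higher and 2 lower, and 5 RNA processing genes higher and 5 lower, where 31.0% of all genes were called higher and 30.8% lower. NDUFB4 had 1.01 (edgeR adjusted p = 0.0706) with all libraries. Short nuclear genes had a median of 0.62 in this comparison, with 336 of 407 above 0.

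Between layers with IL-1β, 24.2% of all genes were called higher in MLC and 22.7% lower. Of the 37 genes of the complex I list 3 were called higher and 4 lower, with a median of 0.02, and of 16 complex V genes 3 and 3, with a median of 0.01. The ribosome list of 77 genes had 13 calls up and 2 down at a median of 0.04, and leaving out 1 library gave 7 to 16 up and 1 to 5 down. Of 4 complex II genes 1 was higher, and NDUFA4, the only complex IV gene found, was lower. Leaving out 1 library left 1 to 4 complex I genes higher and 2 to 4 lower, with 1 higher without SLC replicate 2, and 2 lower without SLC replicate 1 or 3 or MLC replicate 1 or 3. NDUFA4L2, which resembles NDUFA4 and is not a standing complex I subunit, entered the complex I list by its name and is 1 of the 37 in every count. It was 1 of the 4 lower with IL-1β, by -1.51 (edgeR adjusted p = 3.2e-06), and with IL-1β+LOXL2 it was the only gene of the list called (-1.80, edgeR adjusted p = 0.0237), a call lost without SLC replicate 3 (adjusted p = 0.0798) or MLC replicate 1, 2 or 3 (adjusted p = 0.0908, 0.0918 and 0.0738). NDUFS4, an accessory subunit needed for assembly, was lower with IL-1β by -0.47 (edgeR adjusted p = 0.000236).

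Between layers with IL-1β+LOXL2 most values of these lists were below 0. That held for 35 of 37 complex I genes (median -0.29), 13 of 16 complex V genes (median -0.27) and 67 of 77 ribosome genes (median -0.16), against a median of -0.03 over all genes. Short nuclear genes had a median of -0.19, with 145 of 403 above 0. Of these lists edgeR called NDUFA4L2 alone. At an unadjusted p under 0.05, 4 complex I genes with NDUFA4L2 among them, 3 complex V genes and 4 ribosome genes were lower, and DESeq2 called 1 gene of each list. Over all genes 4177 of 14086 had such a p, edgeR called 9.26% higher and 6.82% lower, and DESeq2 called 2816 of 16322, in either direction. Without replicate 1 of SLC with IL-1β+LOXL2, 19 complex I genes with NDUFA4L2 among them, 9 complex V genes and 16 ribosome genes were called lower and 0 higher, where 16.1% of all genes were called lower and 16.8% higher.

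POLRMT, the RNA polymerase of mitochondria, was among the 5 of 17 transcription and replication genes called higher in MLC with IL-1β, where 24.2% of all genes were. It had 467, 481 and 453 normalized counts in SLC and 669, 659 and 711 in MLC with IL-1β, and 439, 482 and 502 and 614, 768 and 796 with IL-1β+LOXL2. POLRMT was above every SLC library in every MLC library, by 0.56 with IL-1β (edgeR adjusted p = 1.82e-05) and by 0.62 with IL-1β+LOXL2 (edgeR adjusted p = 0.0237). LIG3, the ligase of mitochondrial DNA, was higher by 0.46 (edgeR adjusted p = 0.000124) and 0.62 (edgeR adjusted p = 0.0104). These were the only 2 calls among its 17 genes with IL-1β+LOXL2, where 9.26% of all genes were called higher, and no gene of it was called there without SLC replicate 3 or MLC replicate 2 or 3, where adjusted p was 0.0862, 0.112 and 0.104 for POLRMT.

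Among 10 regulators of biogenesis 2 were called higher and 2 lower in MLC with IL-1β, against 24.2% and 22.7% of all genes. PPARGC1A, the coactivator PGC-1α that drives mitochondrial biogenesis, had 109.97, 76.1 and 65.8 normalized counts in SLC with IL-1β and 7.87, 4.87 and 3.71 in MLC with IL-1β. With IL-1β+LOXL2 it had 83.4, 59.1 and 70.9 in SLC and 1.93, 6.62 and 4.03 in MLC. Its raw counts in MLC were only 3 to 6 with IL-1β and 2 to 5 with IL-1β+LOXL2. PPARGC1A was far higher in every SLC library, with a log2 fold change of -3.89 with IL-1β (edgeR adjusted p = 5.66e-07) and -4.10 with IL-1β+LOXL2 (edgeR adjusted p = 0.00068), and both calls held without any single library. PPRC1, a related coactivator, was higher in MLC with IL-1β by 0.43 (edgeR adjusted p = 0.00457). Among 19 RNA processing genes with IL-1β, 3 were higher and 1 lower in MLC, against 24.2% and 22.7% of all genes. The lower one was GRSF1, a protein of mitochondrial RNA granules, at -0.29 (edgeR adjusted p = 0.0016), and TBRG4, which stabilizes mitochondrial messenger RNA, was higher at 0.31 (edgeR adjusted p = 0.00274). Their part in the levels of the 10 transcripts was not tested.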

How the data were processed

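Unscaled counts for each gene were what the authors deposited, made from poly-T selected RNA that was sequenced as paired ends, aligned to the goat genome ARS1.2 with HISAT2 and counted with featureCounts. From these counts, edgeR 4.0.16 (R 4.3.3, limma 3.58.1) fitted each comparison on its own 6 libraries over all genes that passed filterByExpr, with TMM factors, a quasi-likelihood test and Benjamini-Hochberg adjustment, and DESeq2 1.42.0 gave normalized counts and an alternative test. Genes that share a name were summed for comparisons between layers. Gene positions came from RefSeq, where 28884 of 28910 names matched. All 3 same-numbered pairs had r above 0.1 only between layers with IL-1β+LOXL2 (r = 0.64, 0.23 and 0.18), so the blocked fit is given there. Pairs of unlike number ran from -0.60 to 0.48, the latter above 2 of those 3, so pairing by number is not established. The 10 genes and the nuclear lists were chosen with earlier results of these data known, and older complex V symbols were added after the tables were seen. Besides the 10, the text names some genes of the lists for their small p-values, and a few genes chosen after their values were seen. No gene of the nuclear complex V list is named. Nuclear genes of complex III and most of complex IV were not analysed here.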

Additional observations from a re-analysis of the deposited data

How the results depend on the processing

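Each comparison was repeated under 14 alternatives, of which 6 left out 1 library each. Over the 10 transcripts, 128 repeats kept direction and side of the threshold between layers with IL-1β, 2 gained the call and 10 lost it. With IL-1β+LOXL2, 113 kept both, 14 gained the call, 10 lost it and 3 turned sign, ND6 at 0.0492 with the gene-span trend removed and ND3 at -0.216 and -0.0779 within a range from -0.216 to 0.162 with 1 library left out. With LOXL2, 133 repeats in SLC and 131 in MLC moved by less than the replicate spread. Genes called for LOXL2 in SLC numbered 4067 with DESeq2, 5961 with all 12 libraries in the fit and 0 to 8849 with 1 library left out. For LOXL2 in MLC they numbered 0 with all 12 libraries and 0 to 6653 with 1 left out, and between layers with IL-1β 3716 with all 12 libraries and 5410 to 6627. Between layers with IL-1β+LOXL2 they numbered 4199 with all 12 libraries and 1140 to 4678 with 1 left out. The cause was not tested.

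With the replicate number as a block, that comparison had 3883 calls, the others 0 for LOXL2 in SLC, 4053 for LOXL2 in MLC and 5817 between layers with IL-1β, where replicate numbers did not pair the libraries (r from -0.24 to 0.13). Among the 10 transcripts the block changed no call other than those of ND1, ND2, ND5 and, with IL-1β, ND6 (adjusted p = 0.0757).

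Leaving the 10 most abundant nuclear genes out of the denominator moved the summed share to 0.208% in SLC and 0.255% in MLC with IL-1β, and to 0.234% in MLC with IL-1β+LOXL2, and the log2 ratios became -0.25, -0.12, 0.29 and 0.42. With 1 library left out the share ran from 0.1802% to 0.184% and 0.143% to 0.166% in SLC, and 0.218% to 0.226% and 0.201% to 0.210% in MLC, with IL-1β and IL-1β+LOXL2. The log2 ratios then ran from -0.36 to -0.14 and -0.14 to -0.08 with LOXL2 in SLC and MLC, and from 0.26 to 0.31 and 0.31 to 0.52 between layers. Counts of nuclear lists without each library were an alternative chosen after seeing the data.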
